A study of Mus musculus with 26 samples.

Results

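Of the 21527 total H3K27me3 regions deposited for E14 mouse embryonic stem cells, 12011 (55.8%) shared no base with any of the 24540 K4-K27 regions or the 36235 K27-K4 regions of the same cells. These 12011 regions are the members described here, and the 9516 other regions (44.2%) each overlapped at least 1 reChIP region. The members were therefore chosen by E14 readouts, and every E14 level given for them is a description without a test. The clone libraries took no part in the choice.

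H3K27me3 is deposited by Polycomb repressive complex 2, whose catalytic subunit is EZH2 or EZH1, and marks silent or weakly transcribed chromatin. In embryonic stem cells it is best known at CpG-rich promoters of developmental regulators, where it occurs together with H3K4me3, a mark of promoters that are active or poised. Chromatin that carries both marks is called bivalent. H3K27me3 also spreads over intergenic and intronic chromatin that lacks H3K4me3.

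In sequential ChIP (reChIP), chromatin recovered with a first antibody is precipitated again with a second one, so K4-K27 denotes H3K4me3 followed by H3K27me3 and K27-K4 the reverse order. An in-line total is the 10% of the eluate set aside after the first ChIP from each chromatin pellet. The paper describes the E14 in-line totals as noisier than the reChIPs, which it proposes reflects low starting material. It reports few peaks from them and sorted its bivalent regions with independent totals from more cells. E14 cells (non-clonal) were profiled in replicates 1 and 2, which were sequenced in batches A and B. Wild-type (WT) clones 57 and 58 and Dppa2/4 double knockout (DKO) clones 43 and 53, all of strain E14 and all grown in serum with LIF, were sequenced in batch C, so that differences between E14 cells and clones and differences between batches cannot be told apart. DPPA2 and DPPA4 are small nuclear proteins that bind together and are required for both marks at a group of bivalent promoters. Each genotype was represented by 2 clones, each a single line, with no replicate culture of a clone. The 26 libraries comprise total H3K27me3, total H3K4me3, K4-K27 and K27-K4 for E14 cells and both genotypes, with 2 libraries for each, and 2 IgG-IgG controls, 1 from E14 replicate 1 and 1 from WT clone 57.

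The identity of the cells was checked on total H3K4me3. All 8 embryonic stem cell markers listed (Pou5f1, Nanog, Sox2, Zfp42, Esrrb, Klf4, Tdgf1 and Dppa5a) had an E14 H3K4me3 region at the promoter, against 1 of 8 markers of other cell types, Col1a1. None of these 16 genes had a member at its promoter.

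Sequences were taken from the 3 protein-coding promoter members of at least 1500 bp with the highest E14 total H3K27me3 over IgG-IgG. Others came from the widest member and the member with the largest K27-K4 fall in DKO clones. For contrast, the last came from a region near Sox17 outside the members, chosen for its high E14 total H3K27me3 over IgG-IgG (log2 4.53). The sequences are printed first, because the results name these regions. Each is the stretch of 300 bases with the most CpG in that region that lies outside annotated exons, 5′ to 3′ on the plus strand of GRCm38.p6 (mm10), in lower case with CpG dinucleotides in capitals.
Rxfp3 region chr15:11038801-11039100 (+): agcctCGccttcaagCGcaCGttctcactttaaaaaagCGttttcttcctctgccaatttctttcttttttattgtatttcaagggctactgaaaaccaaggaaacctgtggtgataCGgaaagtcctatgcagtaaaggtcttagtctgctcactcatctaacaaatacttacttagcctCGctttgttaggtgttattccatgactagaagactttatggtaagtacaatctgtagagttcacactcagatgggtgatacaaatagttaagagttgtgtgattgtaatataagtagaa
Lyg2 region chr1:37915412-37915711 (+): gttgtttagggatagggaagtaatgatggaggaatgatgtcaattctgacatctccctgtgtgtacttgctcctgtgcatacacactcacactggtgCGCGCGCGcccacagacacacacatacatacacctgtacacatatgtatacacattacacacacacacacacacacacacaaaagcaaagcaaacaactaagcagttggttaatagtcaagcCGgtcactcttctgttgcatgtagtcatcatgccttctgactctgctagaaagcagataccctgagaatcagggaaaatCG
Slfn14 region chr11:83285438-83285737 (+): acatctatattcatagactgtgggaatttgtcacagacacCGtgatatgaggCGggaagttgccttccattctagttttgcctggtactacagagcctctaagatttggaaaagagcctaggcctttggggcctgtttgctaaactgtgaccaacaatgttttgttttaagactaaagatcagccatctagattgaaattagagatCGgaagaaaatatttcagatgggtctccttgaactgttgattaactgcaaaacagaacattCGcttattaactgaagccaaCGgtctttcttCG
Gm4791 region chr9:47070386-47070685 (+): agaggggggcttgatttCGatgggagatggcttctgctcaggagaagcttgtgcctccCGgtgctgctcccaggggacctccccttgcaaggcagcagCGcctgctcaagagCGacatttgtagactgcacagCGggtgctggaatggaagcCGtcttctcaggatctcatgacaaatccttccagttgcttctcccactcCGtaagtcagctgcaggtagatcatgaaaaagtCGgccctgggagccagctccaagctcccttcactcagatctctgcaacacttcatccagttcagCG
Gm42262 region chr4:22784401-22784700 (+): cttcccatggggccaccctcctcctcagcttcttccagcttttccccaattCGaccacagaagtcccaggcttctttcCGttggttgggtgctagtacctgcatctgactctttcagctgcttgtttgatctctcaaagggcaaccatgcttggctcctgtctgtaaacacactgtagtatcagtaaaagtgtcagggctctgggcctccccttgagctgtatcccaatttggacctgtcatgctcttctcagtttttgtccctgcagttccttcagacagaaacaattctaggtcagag
Sox17 region chr1:4490606-4490905 (+): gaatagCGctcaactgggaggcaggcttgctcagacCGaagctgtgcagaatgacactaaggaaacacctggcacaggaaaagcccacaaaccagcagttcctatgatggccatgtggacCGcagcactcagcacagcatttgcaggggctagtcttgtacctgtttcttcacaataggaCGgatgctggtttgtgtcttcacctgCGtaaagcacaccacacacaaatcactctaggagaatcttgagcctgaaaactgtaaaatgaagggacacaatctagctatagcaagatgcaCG
The stretches held 6 CpG near Rxfp3, 6 at Lyg2, 6 at Slfn14, 9 in the widest member (nearest gene Gm4791), 2 in the member with nearest gene Gm42262 and 6 near Sox17. As the most CpG-rich windows of single regions they do not stand for the composition of either set, and the whole region near Sox17 (0.60 CpG per 100 bp) held fewer CpG than those of Rxfp3 (1.09) and Lyg2 (1.2).

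The members were narrow and lay far from start sites. Their median width was 600 bp, with 25th and 75th percentiles of 300 and 900 bp, against 1500 bp (900 to 2550 bp) for the other regions. The smallest width in the table, 300 bp, accounted for 3241 members (27%) and for 4.58% of the other regions. Only 785 members (6.54%) reached 1500 bp, against 52.3% of the other regions, and 8 members exceeded 5 kb. Although they were the majority by number, the members covered 8.29 Mb, or 30.3% of the total length of E14 H3K27me3 regions. Within this set they made up between 49.9% (chromosome 5) and 61.6% (chromosome 3) of the regions of each autosome, and 32.7% on the X chromosome, which held 56 members.

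A region was assigned to a promoter when it reached within 1.5 kb of a RefSeq start site. This held for 311 members (2.59%) and for 3368 of the other regions (35.4%). Wider regions reach a start site more easily, and among regions of 600 to 900 bp the shares were 2.90% and 19.9%. Intergenic chromatin held 7878 members (65.6%, against 38.3% of the other regions), introns 3324 (27.7% against 17.4%) and exons 498 (4.15% against 8.92%). The median distance to the nearest start site was 30890 bp for members and 3867 bp for the other regions, and 2582 members (21.5%) lay over 100 kb from any start site.

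Members were also poorer in CpG. They held a median of 0.80 CpG per 100 bp, against 1.33 in the other regions, with a median GC fraction of 0.450 against 0.475. The ratio of observed to expected CpG exceeded 0.6 in 23 members (0.191%) and in 144 other regions (1.51%), and 642 members (5.35%) held no CpG at all. The difference was also present at matched width and at promoters. Among regions of 600 to 900 bp, the 4478 members had a median of 0.83 CpG per 100 bp and the 2013 other regions 1.11, and members at promoters (0.89) were also below other promoter regions (1.77). The share of repeat-masked bases was alike, with medians of 13.3% and 13.6%.

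**Figure D1:**
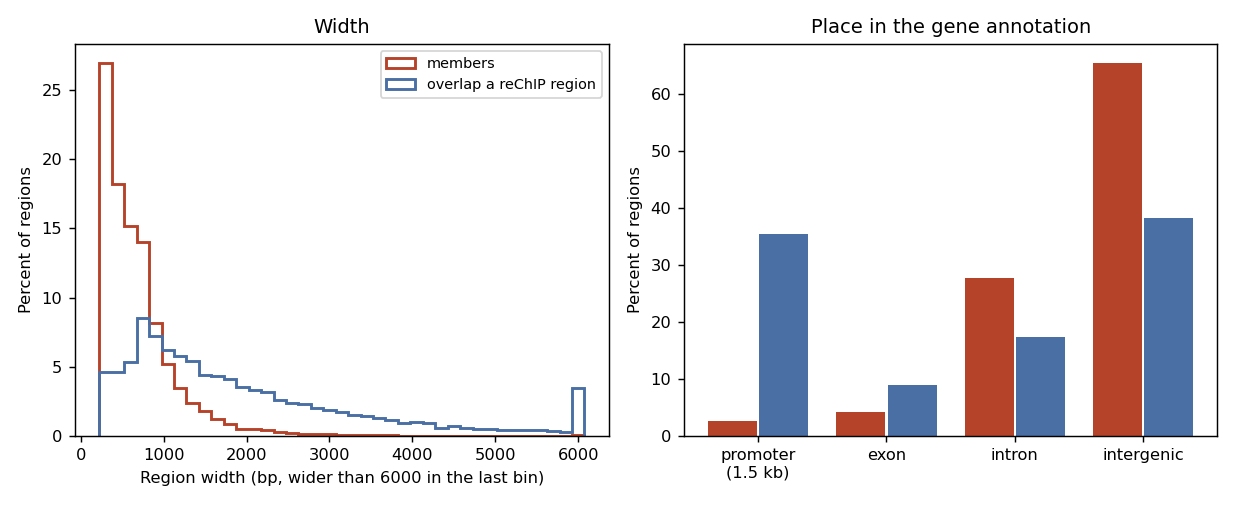
Left, distribution of region width in bp (x axis) as percent of regions (y axis) for members (red) and for E14 H3K27me3 regions that overlap a reChIP region (blue). Right, percent of each set at promoters, exons, introns and intergenic positions, where members were at promoters in 2.59% of cases against 35.4%.

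The 311 promoter members lay at 293 genes, 217 of them protein-coding. At 243 of the 293 genes no other H3K27me3 region reached the promoter window, and at 125 genes a reChIP region did reach the window without overlapping the member. For 115 protein-coding genes, a member was the only E14 H3K27me3 region and no reChIP region lay within 1.5 kb of a start site.

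Gene families were then examined by list, with the share of all 21000 protein-coding genes as the background: 1.03% had a member, 12.1% another H3K27me3 region and 72.0% a region of either reChIP set at a promoter. Counts of members in the developmental lists were too small to be set apart from this background. None of 39 Hox genes had one, whereas 35 had another H3K27me3 region and all 39 a reChIP region. Of 161 developmental transcription factor genes 1 had a member, Tbx19, a T-box factor of pituitary corticotrophs, whereas 76 had another H3K27me3 region and 153 a reChIP region. Wnt and BMP ligands and receptors had 1 member in 51 genes (Gdf2, which encodes BMP9), and 25 with another H3K27me3 region. No member lay at the promoters of 27 genes of Polycomb components, 24 imprinted genes, 350 vomeronasal receptor genes or 77 cytosolic ribosomal protein genes, and 75 of these last genes had a reChIP region.

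The other lists also held few members. Olfactory receptors, expressed singly in sensory neurons, had members at 16 of 1107 promoters (1.45%) and other H3K27me3 regions at 4, and this list was the only one in which members were the more numerous. Interleukins, chemokines and their receptors had 5 members in 135 genes (3.70%), at widths up to 1050 bp, among them Il12b, Il1a, Il31ra and Il33. Orphan and adhesion GPCRs had 3 in 102 (Gpr55, Gpr65 and Adgrf5), cadherins and protocadherins 3 in 92, with Cdh26 the widest, and solute carriers 3 in 346 (Slc17a1, Slc5a7 and Slc17a2). Neurotransmitter receptors had 2 in 97, the nicotinic receptor subunit gene Chrnb3 and the GABA receptor subunit gene Gabrr1. Keratins had 2 in 109 (Krt13 and Krt25), collagens 2 in 44 (Col6a6 and Col1a2) and germline genes 2 in 15 (Piwil2 and Mael, both of the piRNA pathway that silences transposons). Potassium, sodium and calcium channels had 1 in 126 (Kcnip1, a channel-interacting protein), axon guidance genes 1 in 66 (Sema3a) and cytochrome P450 genes 1 in 98 (Cyp2b10). Most promoters in several of these lists also had a reChIP region in the window: 15 of 15 germline genes, 65 of 66 axon guidance genes, 109 of 126 channel genes and 38 of 44 collagen genes. The members of those lists and of the P450 list were all at such promoters, as were 3 of the 5 interleukin and chemokine promoters with a member, whereas 14 of the 16 olfactory receptor promoters had no reChIP region, in a list with 26 such promoters (2.35%) in all. These counts are given as descriptions, without a test.

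**Figure D2:**
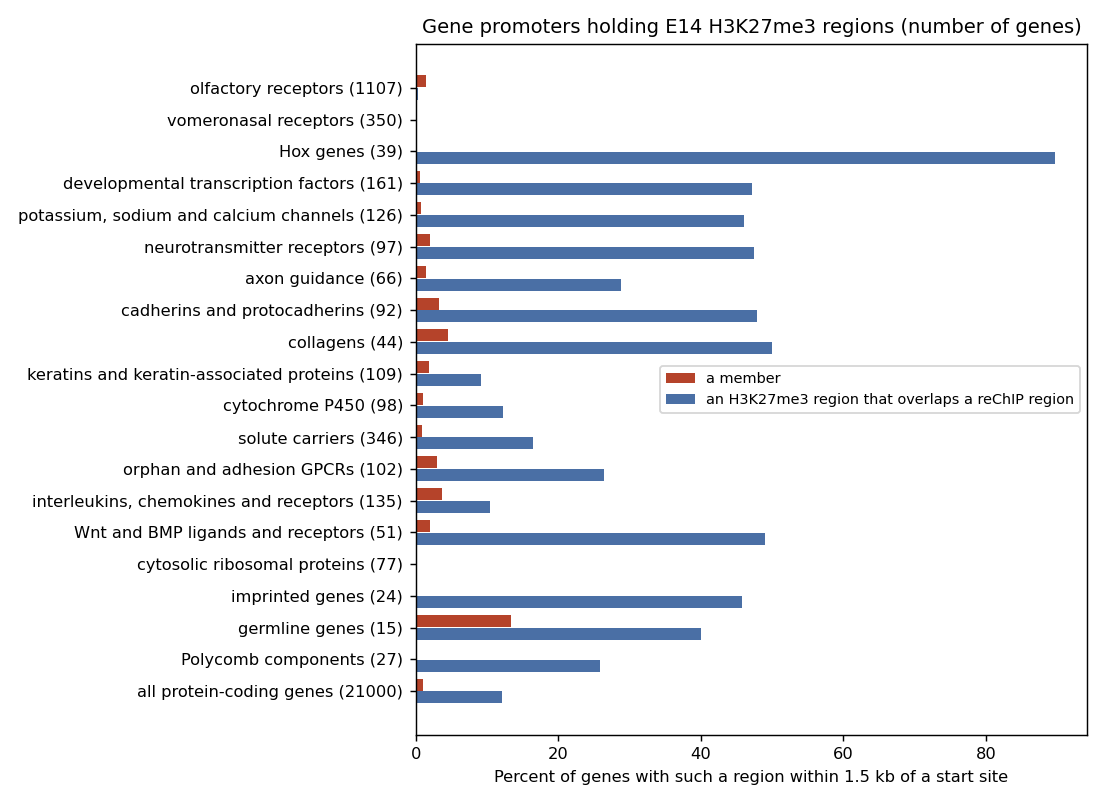
Percent of the genes of each list (x axis, number of genes in parentheses) with a member (red) or with an E14 H3K27me3 region that overlaps a reChIP region (blue) within 1.5 kb of a start site. Members were at 1.45% of olfactory receptor promoters and at none of the Hox promoters.

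All levels are log2 RPM (reads scaled to library size) per kb of region. Reads were extended by 200 bp before counting, which by construction raises the values of narrow regions. In E14 cells, median total H3K27me3 at members was 0.60 in replicate 1 and 0.71 in replicate 2, close to the other regions (0.59 and 0.66). Total H3K4me3 was low, at -0.45 and -0.73, against -0.30 and -0.45. The reChIPs separated the sets, as the rule requires. K4-K27 medians were 0.16 and -0.37 at members and 1.27 and 0.89 elsewhere, and K27-K4 medians were -0.31 and -1.04 against 0.98 and 1.22. Across members the E14 H3K4me3 set overlapped 35 regions (0.291%), against 2536 of the other regions (26.6%).

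In E14 cells, K4-K27 at members was above the control in both replicates, while K27-K4 was close to it in replicate 2. Relative to IgG-IgG, median enrichment of members reached 1.75 ± 0.08 in total H3K27me3, 1.0 ± 0.34 in K4-K27, 0.45 ± 0.49 in K27-K4 and 0.50 ± 0.13 in total H3K4me3 (log2, mean ± SD of the library medians, n = 2). In replicate 1, K4-K27 exceeded IgG-IgG at 86.7% of members and K27-K4 at 78.7%. In replicate 2 these shares were 85.2% and 53.9%, and the median K27-K4 enrichment of that replicate was 0.10 over all members and -0.44 at members over 50 kb from a reChIP region. The other regions had medians of 1.49 ± 0.07 in total H3K27me3, 2.19 ± 0.16 in K4-K27, 2.2 ± 0.30 in K27-K4 and 0.59 ± 0.06 in total H3K4me3.

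The boundary set by the rule was gradual. At the 230 members that touched a reChIP region without overlapping it, median K4-K27 was 0.42 and -0.05 and median K27-K4 -0.02 and -0.38 in replicates 1 and 2. At the 180 other regions with the smallest overlap, 150 bp, these were 0.65 and 0.05, and -0.02 and -0.26.

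**Figure D3:**
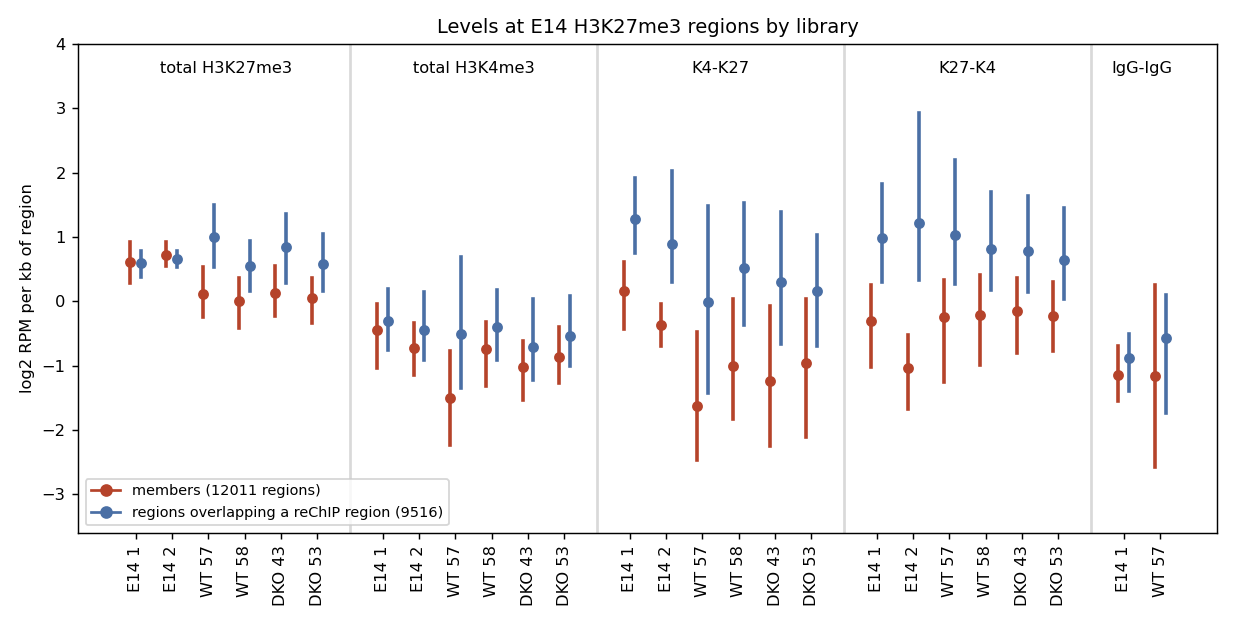
Median (point) and 25th to 75th percentile (line) of log2 RPM per kb of region (y axis) in each of the 26 libraries for members (red) and the other E14 H3K27me3 regions (blue). Total H3K27me3 was alike in E14 cells and lower at members in all 4 clones, where medians lay between -0.00 and 0.13.

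Depth limits what single members can show. Between 6741245 and 47903464 reads stood behind a library, and the median member held 0 to 29 reads, depending on the library. A pair of libraries stood apart at members. K4-K27 of WT clone 57 had 0 reads at 50.2% of members and IgG-IgG of the same clone at 36.2%, whereas total H3K27me3 had 0 reads at no more than 0.233% in any clone. K4-K27 of the other clones had 0 reads at 20.7% to 32.4% of members. E14 total H3K27me3, the ChIP for which the regions were deposited, showed no correlation between its replicates across these regions. Pearson's r was -0.04 over members and -0.03 over the other regions. The 25th to 75th percentiles at members spanned only 0.29 to 0.92 in replicate 1 and 0.55 to 0.91 in replicate 2. Within regions listed for this ChIP, such an r does not measure replicate agreement over the genome. Replicate libraries of the clones ranked members less alike than the other regions. Over the members, Pearson's r between clones was 0.28 in WT and 0.37 in DKO for total H3K27me3, against 0.75 and 0.80 over the other regions, and 0.14 and 0.20 for K27-K4, against 0.80 and 0.82. These are correlations across regions that share libraries, and are given as descriptions.

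The clones showed how far the H3K27me3 of members recurred in independent libraries. Median total H3K27me3 at members was 0.12 in WT clone 57, -0.00 in WT clone 58, 0.13 in DKO clone 43 and 0.05 in DKO clone 53. At the other regions it was 0.99, 0.55, 0.84 and 0.58, so that the median of the members was the lower one in all 4 clones. Median K27-K4 at members was -0.25 and -0.22 in WT clones and -0.16 and -0.22 in DKO clones, against 1.03 and 0.81, and 0.78 and 0.64. K4-K27 was -1.62 and -1.01 in WT and -1.25 and -0.96 in DKO clones, and total H3K4me3 -1.50 and -0.74, and -1.03 and -0.86. Against IgG-IgG of WT clone 57, median enrichment of total H3K27me3 at members was 1.12 ± 0.12 in WT and 1.14 ± 0.09 in DKO clones (SD, n = 2). The control was itself lower at members (-1.16 against -0.58), and the other regions had enrichments of 1.5 ± 0.38 and 1.45 ± 0.16. Where that control had at least 1 read, the median enrichment of total H3K27me3 at members was 0.14 in WT and 0.18 in DKO clones.

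The deposited region sets of the clones contained few of the members. A WT total H3K27me3 region overlapped 911 members (7.58%) and 50.7% of the other regions, and a DKO total H3K27me3 region 1518 (12.6%) and 50%. Among regions of 600 to 900 bp these shares were 7.24% against 31.6% in WT and 13.8% against 35.5% in DKO clones. The DKO set is the larger, with 32352 regions against 21436. Both sets overlapped 530 members, the WT set alone 381, the DKO set alone 988 and neither 10112 (84.2%). A WT K27-K4 region overlapped 710 members (5.91%, against 61.5% of the other regions) and a WT K4-K27 region 84 (0.699%, against 42.2%). DKO K27-K4 and K4-K27 regions overlapped 777 (6.47%, against 56.5%) and 140 (1.17%, against 38.1%). Total H3K4me3 regions of WT and DKO clones overlapped 4 and 10 members, against 33.1% and 24.9% of the other regions.

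The 530 members with a total H3K27me3 region in both genotypes had a median width of 1050 bp and lay a median of 3376 bp from an E14 reChIP region. Of these, 46.0% also had a WT K27-K4 region and 53.6% a DKO K27-K4 region, against 2.26% and 2.14% of members with a total H3K27me3 region in neither genotype. Only 4.53% had a WT K4-K27 region. A total H3K27me3 region in both genotypes, with no clone reChIP region and no H3K4me3 region in any cells, was found at 157 members (1.31%) and at a like share of the other regions, 146 (1.53%). Overlap with clone sets also grew with width, from 2.62% in WT and 4.72% in DKO clones at members of 300 bp to 30.5% and 38.7% at the 568 members over 1500 bp. IgG-IgG of WT clone 57 moved with these classes, with a median of -2.40 at the 530 members and -0.75 at members found in neither, and its part in the overlap was not tested.

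Members were spread across distances from the reChIP regions of either order. The median distance to the nearest E14 reChIP region was 10051 bp. It was up to 1 kb for 1563 members, 1 to 5 kb for 2816, 5 to 50 kb for 5540 and over 50 kb for 2092. Median K27-K4 was lower in each farther class in all 4 clones. In WT clone 57, median K27-K4 was -0.11, -0.25, -0.40 and -0.51 from the nearest to the farthest class, and in DKO clone 43 it was 0.03, -0.07, -0.22 and -0.35. Median total H3K27me3 in DKO clone 43 was 0.28, 0.24, 0.13 and 0.03, whereas in WT clone 57 it was 0.34, 0.22, 0.12 and 0.12 and in WT clone 58 0.10, 0.01, -0.00 and -0.00. At widths of 600 to 900 bp, WT clone 58 went from -0.06 at 5 to 50 kb to -0.23 over 50 kb, and K27-K4 was level between neighbouring classes in WT clone 58 (-0.35 past 5 kb) and DKO clone 53 (-0.25 from 1 to 50 kb). The share with a WT total H3K27me3 region was 12.9%, 10.4%, 6.17% and 3.54%, and with a DKO region 22.8%, 16.8%, 10.6% and 4.83%. The near members were wider (median 750 bp up to 1 kb and 450 bp over 50 kb). Among members of 600 to 900 bp, the shares still declined, from 9.27% to 4.78% in WT and from 21.9% to 6.59% in DKO clones. Promoters made up 6.85% of members up to 1 kb and 1.39% of those over 50 kb.

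**Figure D4:**
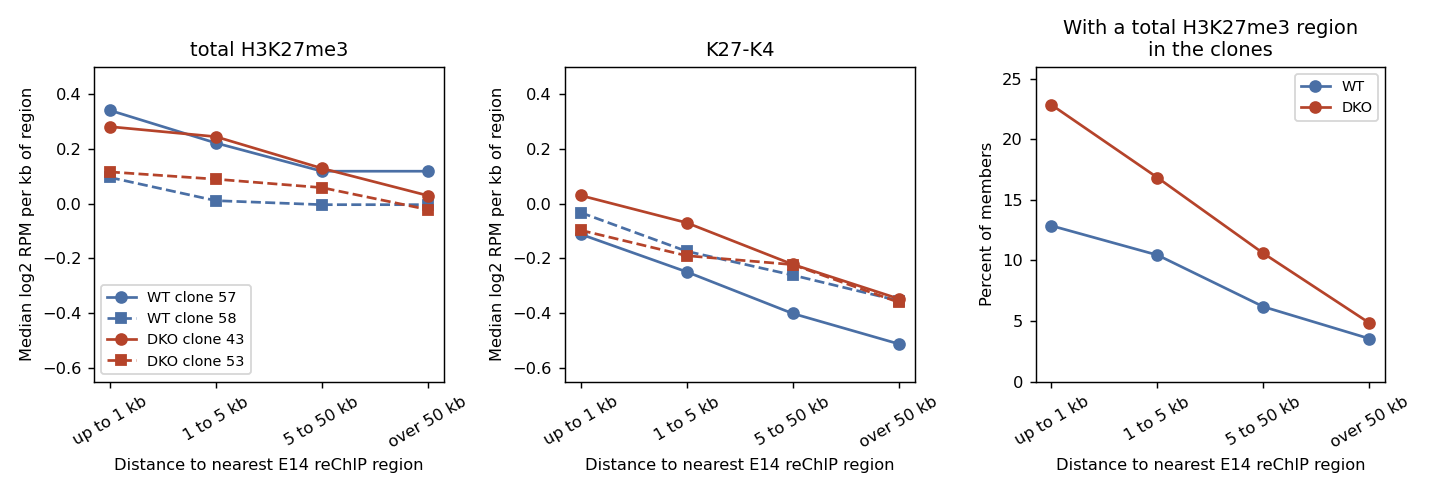
Left and middle, median log2 RPM per kb of total H3K27me3 and K27-K4 at members (y axis) in each clone by distance to the nearest E14 reChIP region (x axis). Right, percent of members with a total H3K27me3 region in WT (12.9% to 3.54%) and DKO clones (22.8% to 4.83%).

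Members were mostly single. When members with gaps of up to 5 kb were joined, 8255 of them stood alone and 374 runs held 3 or more. The longest run, 8 members over 13950 bp (chr9:71218651-71232600), lay nearest to Aldh1a2, which encodes a retinoic acid synthesising enzyme. Runs of 7 members lay nearest to Csf1, a macrophage growth factor, and Gm1653.

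The balance of the marks within the clones was tested on libraries that the rule did not use, with limma across all 21527 regions (calls required a difference of over 1 log2 unit and a p under 0.05 after Benjamini-Hochberg adjustment). The 4 clones were fitted together. Total H3K27me3 exceeded total H3K4me3 at members by a median log2 difference of 1.14, against 1.20 at the other regions and 1.16 over all regions. The test called 6281 members higher and 4 lower, where 55.6% and 0.302% of all regions were called. With each library centred on its median, which by construction removes a shift common to all regions, 23 members were called higher and 43 lower. Without DKO clone 43 the count was 3764 higher and 6 lower.

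K27-K4 was below total H3K27me3 at members, with a median log2 difference of -0.40, whereas it was 0.10 at the other regions and -0.18 over all regions. Of the members, 61 were called lower and 3 higher, against 0.316% and 5.27% of all regions. Only 7 other regions were called lower. The call at single members depended on single clones, since no member was called without DKO clone 43, 1 was called lower without DKO clone 53, and 22 lower and 4 higher without WT clone 57. The median difference lay between -0.43 and -0.32 when each clone was left out, and was -0.25 with centred libraries and -0.26 without the lowest quartile of regions. For K4-K27 against total H3K4me3 the median was -0.09 at members and 0.73 at the other regions (0.24 over all regions). The median at members had no settled sign, at -0.38 with centred libraries, 0.08 without the lowest quartile of regions and 0.39 at regions with at least 1 read in every library. Of the members, limma called 68 higher and 58 lower, where 11% and 0.316% of all regions were called. Without the lowest quartile of regions 90 of 7597 members were called higher and 19 lower, and at regions with at least 1 read in every library 229 of 3082 members were higher and 2 lower. With centred libraries 1 member was called higher and none lower, and without DKO clone 43 the counts were 20 and 3. Without WT clone 58 they were 66 and 22, without DKO clone 53 60 and 12, and without WT clone 57 103 and 54. With the clone as a replicate block they were 112 and 47. No member was called in this comparison when the variance trend and robust estimation were both omitted.

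Few members were called changed between DKO and WT clones. The median log2 difference of DKO minus WT over members was 0.03 in total H3K27me3 and 0.14 in each of total H3K4me3, K4-K27 and K27-K4. At the other regions these medians were -0.01, -0.09, -0.09 and -0.19. The sign at members depended on single clones. Without WT clone 57 the medians for total H3K4me3, K4-K27 and K27-K4 were -0.22, -0.13 and -0.01, and without WT clone 58 0.40, 0.53 and 0.11. Total H3K27me3 was at -0.07 without WT clone 58, and K4-K27 at -0.08 without DKO clone 53 and -0.09 with centred libraries. For total H3K27me3, limma called 29 members higher and 27 lower, where 0.177% and 0.799% of all regions were called, which corresponds to 0.241% and 0.225% of members. Of the members that rose 18 were 300 bp wide, and of those that fell 25. The genotype with the lower value held a median of 3 reads at members that rose and 5 at those that fell. With centred libraries 1 member was called higher and none lower, and with neither variance trend nor robust estimation 18 higher and 1 lower. Leaving out DKO clone 43 gave 0 higher and 2 lower, DKO clone 53 2 and 15, WT clone 57 114 and 3, and WT clone 58 58 and 17.

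The largest rise of total H3K27me3 was at a member of 300 bp (chr1:12689551-12689850), intergenic and 2580 bp from the start site of Sulf1, a heparan sulfatase. Its total H3K27me3 was -1.47 and -1.23 in WT clones 57 and 58 (2 reads each) and 1.87 and 1.30 in DKO clones 43 and 53 (20 and 25 reads). Both DKO clones were above both WT clones, with a log2 difference of 2.93 ± 0.44 (SE) and a limma adjusted p of 2e-07. In E14 cells the 2 replicates were at 0.12 and 1.33. The largest fall was in an intron of chr11:29959651-29959950, where the nearest start site is that of Eml6. Values were 0.12 and 0.77 in WT clones and -0.87 and -3.34 in DKO clones, from 6, 8, 3 and 1 reads, a difference of -2.55 ± 0.71 (SE) with a limma adjusted p of 0.0391.

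For K27-K4, 1 member was called higher and 9 lower in DKO clones, where 0.0186% and 1.58% of all regions were called. These 9 are 0.0749% of members, against 3.48% of the other regions called lower. None of the 10 calls was kept when the variance trend and robust estimation were both omitted. The largest fall was at the intronic region whose nearest start site, that of Gm42262, is 50796 bp away, which had 11 and 15 reads in WT clones 57 and 58 and 0 reads in both DKO clones. Its values of 1.21 and 1.55 in WT and -2.96 and -2.51 in DKO clones did not overlap, with a limma adjusted p of 0.038. In E14 cells K27-K4 there was -1.17 and -1.52, on 0 and 5 reads. A member 9598 bp from Tbx20, a T-box factor of the heart, had 21 and 8 reads in WT and 2 and 0 reads in DKO clones (limma adjusted p = 0.0473). The call that rose was at the promoter of Gm33677, with 0 reads in both WT clones and 17 and 14 reads in DKO clones (limma adjusted p = 0.0362). Leaving out WT clone 58 called 230 members higher and 65 lower, WT clone 57 113 and 28, DKO clone 43 0 and 43, and DKO clone 53 0 and 35.

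No member was called for total H3K4me3 or K4-K27, where 0% of regions were called higher and 0% and 0.00465% lower. In simulated data, a shift of 3 log2 units was recovered at 45% of shifted regions for total H3K4me3 and 23% for K4-K27. At an unadjusted p under 0.05, limma found 360 members higher and 254 lower for total H3K4me3 (3% and 2.11% of members, against 1.93% and 4.1% of all regions). For K4-K27 it found 443 and 225 (3.69% and 1.87%, against 2.95% and 4.52% of all regions). For total H3K4me3, leaving out WT clone 58 called 264 members higher and 9 lower and leaving out DKO clone 53 called 0 and 3. For K4-K27, leaving out WT clone 57 called 8 and 7 and WT clone 58 13 and 6.

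**Figure D5:**
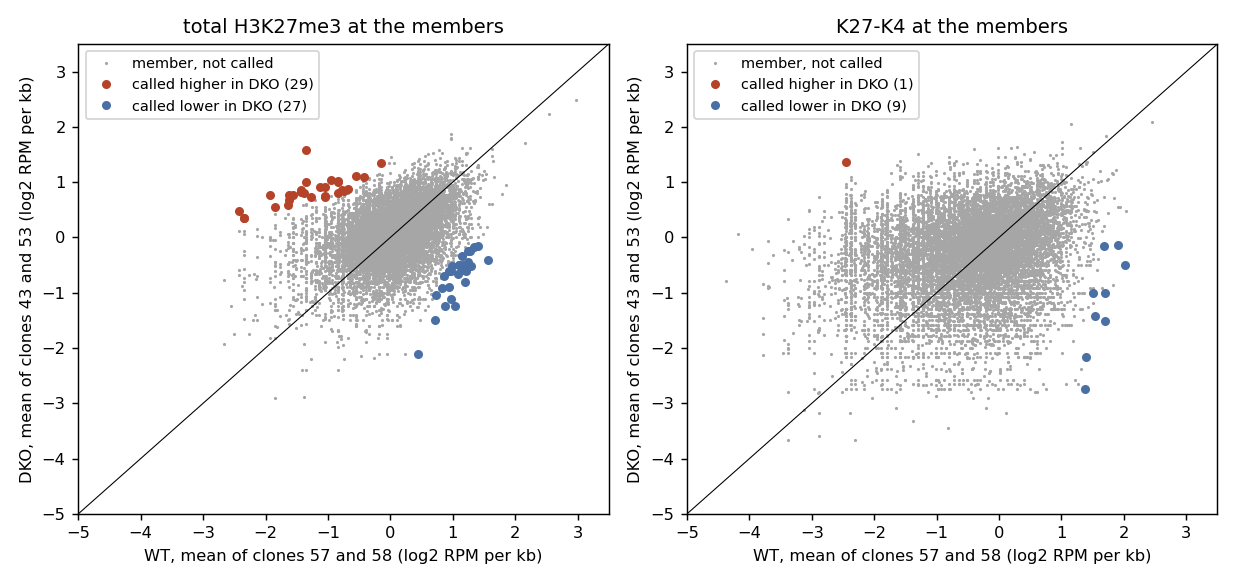
Each grey point is a member, with the mean of WT clones 57 and 58 (x axis) and of DKO clones 43 and 53 (y axis) in log2 RPM per kb, for total H3K27me3 (left) and K27-K4 (right). Members called higher (29 and 1, red) or lower (27 and 9, blue) in DKO clones lie away from the diagonal.

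Individual members at promoters illustrate the profile. Among the members of 1500 bp or more at protein-coding promoters, Rxfp3, which encodes a relaxin family peptide receptor, had the highest E14 total H3K27me3 relative to IgG-IgG (2.66). At this region (chr15:11038801-11040450), total H3K27me3 was 0.30 and 0.45 in E14 cells, 0.63 and 0.71 in WT clones and 0.78 and 0.41 in DKO clones. The E14 values were below the medians over all members, 0.60 and 0.71. Total H3K4me3 was -1.18 and -0.91 in E14 cells, -2.16 and -1.32 in WT clones and -1.32 and -1.0 in DKO clones. In the 4 clones, which the rule did not use, every total H3K27me3 value lay above every total H3K4me3 value, and the difference was 2.08 ± 0.34 (SE, limma adjusted p = 0.000642). The region touched a reChIP region without overlapping it, and K4-K27 was 0.21 and 0.32 in E14 cells and between -2.12 and -0.96 in the clones. K27-K4 was 0.65 and -0.42 in WT and -0.02 and 0.09 in DKO clones, so that in WT clone 57 it was as high as total H3K27me3. IgG-IgG was -2.28 in E14 cells but 0.02 in WT clone 57, on 3 and 25 reads, and the part of this difference in the clone levels was not tested.

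The member at the start site of Lyg2, which encodes a lysozyme-like protein (chr1:37915201-37916700), had total H3K27me3 of 0.60 and 0.71 in E14 cells, 0.07 and 0.36 in WT clones and 0.78 and 0.62 in DKO clones. Total H3K4me3 there lay between -1.65 and -0.72 in the 4 clones, below their total H3K27me3 (clone difference 1.62 ± 0.31 SE, limma adjusted p = 0.00143). DKO clones were above WT clones for total H3K27me3, but the difference of 0.48 ± 0.42 did not pass the test (limma adjusted p = 0.967). At Slfn14, a Schlafen family gene, total H3K27me3 was 0.36 and 0.49 in E14 cells, -0.60 and -0.23 in WT clones and -0.27 and 0.22 in DKO clones. There the marks were closer, and the clone difference of 0.86 ± 0.37 had a limma adjusted p of 0.0565. E14 IgG-IgG held 4 reads at Lyg2 and 4 at Slfn14, where E14 total H3K27me3 was also below the medians over all members.

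The others named by the same rule were Kcnip1, Pebp4, Fam107a, Itgam (an integrin of myeloid cells), Mael, Piwil2 and Smco4, with enrichments between 1.22 and 1.85. Of the 10, a DKO total H3K27me3 region overlapped those of Lyg2, Slfn14, Piwil2 and Smco4 and a WT one that of Fam107a. At Mael, total H3K27me3 was -0.02 and 0.47 in E14 cells, 0.32 and 0.31 in WT clones and 0.04 and -0.52 in DKO clones. The DKO clones were lower, by 0.56 ± 0.45 (SE), which did not pass the test (limma adjusted p = 0.94).

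At the only developmental transcription factor promoter, that of Tbx19 (chr1:165160801-165162150, 1350 bp), total H3K27me3 was -0.05 and 0.64 in E14 cells, 0.53 and -0.07 in WT clones and -0.17 and 0.04 in DKO clones. Total H3K4me3 lay between -1.39 and -0.51. The nearest reChIP region was 28651 bp away. At Chrnb3 (chr8:27368401-27369150), total H3K27me3 was 0.80 and 0.63 in E14 cells, 0.38 and -0.38 in WT clones and 0.54 and 0.62 in DKO clones. The clone difference from total H3K4me3 was 1.6 ± 0.38 (SE, limma adjusted p = 0.00447). At Gpr65, a proton-sensing receptor of immune cells, total H3K27me3 was 0.29 and 0.39 in E14 cells, 0.06 and -0.32 in WT clones and 0.24 and 0.18 in DKO clones. IgG-IgG of WT clone 57 was higher there than all 4 clone values, at 0.42, and that of E14 cells held 1 read.

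The widest member at a protein-coding promoter spanned 5850 bp over Olfr1339 (chr4:118731301-118737150). Its total H3K27me3 was 0.32 and 0.60 in E14 cells, 0.52 and 0.01 in WT clones and 1.13 and 0.71 in DKO clones, from 90 to 325 reads in each library. Both DKO clones were above both WT clones, but the difference of 0.65 ± 0.42 (SE) had a limma adjusted p of 0.807. K27-K4 there was -0.30 and -0.24 in E14 cells, 0.44 and -0.23 in WT clones and 1.08 and 0.45 in DKO clones, and a clone reChIP region overlapped it. Total H3K4me3 stayed between -1.75 and -0.86.

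The widest member of all measured 17400 bp (chr9:47069701-47087100), in an intergenic stretch 70960 bp from the nearest start site, that of Gm4791. Its total H3K27me3 was even, at 0.67 and 0.70 in E14 cells, 0.88 and 0.59 in WT clones and 0.88 and 0.70 in DKO clones. IgG-IgG was also high there, at 0.17 in E14 cells and 0.35 in WT clone 57, so the E14 enrichment was 0.51, below the member median. No clone total H3K27me3 region overlapped it. An exonic member of 6300 bp (chr7:78589951-78596250), 12113 bp from the nearest start site, that of the neurotrophin receptor gene Ntrk3, had total H3K27me3 of 0.35 and 0.48 in E14 cells, 0.63 and 0.39 in WT clones and 0.35 and 0.19 in DKO clones. Total H3K4me3 was between -2.25 and -0.82, with a clone difference of 1.9 ± 0.37 (SE, limma adjusted p = 0.00149), and total H3K27me3 regions of both genotypes overlapped it. The remaining 3 of the 5 widest, each also 6300 bp, lay nearest to C130046K22Rik, 1600019K03Rik and Trpm5, a taste cell cation channel gene. Of these, 1600019K03Rik had IgG-IgG of 0.20 and 0.70.

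Gm6116 and Meis2, used in the study as qPCR controls for H3K27me3 alone, had no member at their promoters. Gm6116 had E14 H3K27me3 regions of 3150 and 2400 bp there, each of which overlapped an E14 reChIP region. The qPCR amplicons themselves were not placed, and the other such control, K27me_R1, was not looked up.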

How the data were processed

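The members, gene lists and comparisons were chosen with earlier results of these data known. Each library's group came from its label, matched to the column headings of the tables. In the tables, 32 columns of other series were not used. The submitters' processing notes name mm10, GRCm38.p6, Trim Galore 0.6.6, BWA 0.7.13, SAMtools 1.9, Picard 2.6.0, deepTools 3.5.0 and MACS 2. The authors deposited log2 RPM per kb from SeqMonk, with mapping quality over 20, reads extended by 200 bp, duplicates kept and IgG-IgG not subtracted. The mm10 and GRCm38.p6 builds are the same assembly. All values were whole reads within a tolerance of 0.02, with 0 reads entered as 0.9 reads. The study's methods describe peaks called in each replicate with EPIC2 against IgG-IgG, filtered and intersected. The edges of the deposited E14 regions lie on a 150 bp grid, which is not the bin size given there, and the deposited reChIP sets hold more regions than those the study describes, so whether those settings made the deposited sets is not known.

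Between 6741245 and 47903464 reads stood behind a library. Narrow regions hold few reads each, so counting error limits their precision. Overlap meant 1 shared base, and distances were measured edge to edge. Promoters, places and sequences came from RefSeq for GRCm38.p6 (31601 start sites, 26180 genes). Tables were joined in Python 3.11.15 (pandas 2.3.3 and numpy 2.4.6), with scipy 1.17.1, and drawn with matplotlib 3.10.9. limma 3.58.1 (R 4.3.3) was run with variance trend and robust estimation over all 21527 regions with Benjamini-Hochberg adjustment, at an adjusted p under 0.05 and a log2 difference above 1. Tests on 2 clones per genotype measure the spread between these clones.

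The tests were first tested on simulated data, with 200 of 21527 regions shifted by 3 log2 units up or down. For DKO minus WT, recovery was 89.5% in total H3K27me3, 45% in total H3K4me3, 23% in K4-K27 and 46.5% in K27-K4. Within clones it was 90% for K27-K4 against total H3K27me3, 79% for K4-K27 against total H3K4me3 and 95% for total H3K27me3 against total H3K4me3. An alternative paired the libraries that share a clone. Deviations of paired libraries correlated at 0.0092 to 0.0953 across regions.

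Named loci were the 10 members of at least 1500 bp with the highest E14 total H3K27me3 over IgG-IgG at protein-coding promoters. Others were the 5 widest members, the 5 largest called falls and rises per DKO comparison and up to 4 genes per list by width. The study's H3K27me3-only controls Gm6116 and Meis2 were also named, without K27me_R1. Runs of members were named after their values were seen. Sequence windows were moved off exons where they overlapped one. Alternatives covered scaling, the variance model, thresholds, a filter on low values, subsets of members, promoter width, the IgG-IgG library, pairing and each clone left out. Those on regions with at least 1 read in every library and on a single genotype were added after seeing the data.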

Additional observations from a re-analysis of the deposited data

Results flagged for a closer look

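K4-K27 minus total H3K4me3, as the median over members, went in opposite directions in E14 cells and WT clones. The difference was 0.66 and 0.38 in E14 replicates 1 and 2 (mean 0.52) and -0.12 and -0.10 in WT clones 57 and 58 (mean -0.11). The difference between these groups was not tested, and E14 values took part in the choice of members. Restricted to members with at least 1 read in both libraries of a clone, the WT medians were 0.84 and 0.36, of the same sign as in E14 cells. DKO clones were at 0.00 and -0.10, and at 0.63 and 0.31 with that restriction.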

How the results depend on the processing

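Of 123 alternative values, 66 were counted as the same, 44 moved, 6 lost all calls and 7 gained calls where there were none. Percents called and the number of members counted as the same within 1.5 times of the value reported. Shares did so inside the exact binomial 95% interval of that value, the median width when equal, and enrichments within the replicate SD. The sign of a median and the direction of calls were not part of this count. The percent of members called for DKO minus WT, in the order total H3K27me3, total H3K4me3, K4-K27 and K27-K4, ranged over the fits without each clone from 0.0167% to 0.974%, 0% to 2.27%, 0% to 0.158% and 0.291% to 2.46%. Within clones it ranged from 0% to 0.525% (K27-K4 against total H3K27me3), 0.191% to 1.31% (K4-K27 against total H3K4me3) and 31.4% to 53.8% (total H3K27me3 against total H3K4me3). With a clone left out, its genotype's lone library is assumed to vary like the others.

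Centring moved DKO minus WT total H3K27me3 from 0.466% to 0.00833% and K4-K27 from 0% to 0.0749% (2 higher, 7 lower), and within clones K4-K27 against total H3K4me3 from 1.05% to 0.00833% and total H3K27me3 against total H3K4me3 from 52.3% to 0.549%. For K27-K4 centring gave 1 higher and 7 lower in DKO against WT, and 14 higher and 56 lower against total H3K27me3. Without variance trend and robust estimation, omitted together, total H3K27me3 gave 0.158%, K27-K4 0% and K4-K27 against total H3K4me3 0%. Without the lowest quartile, K4-K27 gave 0.0133% and K27-K4 0.223%, and with at least 1 read in every library 0.379% and 0.266%, and 7.5% for K4-K27 against total H3K4me3. The cause was not tested.

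WT or DKO clones alone gave 0% and 0.025% for K27-K4 against total H3K27me3, 0% and 0% for K4-K27 against total H3K4me3, and 21.4% and 32.8% for total H3K27me3 against total H3K4me3. With the clone as a replicate block, the comparisons within clones called 0.599%, 1.32% and 50.9% of members, with 112 higher and 47 lower for K4-K27 against total H3K4me3 in place of 68 and 58. No other call count moved by over 1.5 times. DKO and WT clones share no number and could not be paired.

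With no E14 reChIP region within 5 kb, 7632 members remained, with a median width of 450 bp, 1.97% at promoters, 5.45% in a WT total H3K27me3 region, 4.98% in a WT reChIP region and 0.0524% called for K27-K4. Promoters of 500 bp and 5 kb either side gave 0.957% and 12%. With the other cells' IgG-IgG, median enrichment was 1.66 for total H3K27me3 and 0.31 for total H3K4me3 in E14 cells, -0.090 for K4-K27 and 0.80 for K27-K4 in WT, and -0.039 and 0.88 in DKO clones. Where IgG-IgG held reads, WT medians were 0.14 (total H3K27me3), -1.01 (total H3K4me3), -1.13 (K4-K27) and -0.23 (K27-K4), and DKO medians 0.18, -0.83, -0.88 and -0.13. The K4-K27 medians of both genotypes changed sign under both IgG-IgG alternatives, and K27-K4 of both and DKO total H3K4me3 (0.04) under the second, and WT total H3K4me3 (-0.09 to 0.02) under the first. Low read counts at narrow members limit every call on a single region.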
